A study of Mus musculus with 15 samples.

Results

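The actin, myosin and actin-binding genes were followed through a knockdown of Smarcb1, a core subunit of the SWI/SNF chromatin remodelling complex, in mouse embryonic stem cells. Members were taken by symbol: the 6 actins, the 4 alpha-actinins, vinculin, the 3 filamins, the transgelins, calponins and tropomyosins, and every symbol that reads Myh, Myl or Myo followed by a digit, pseudogenes with -ps excepted. The rule found 74 of the 55228 listed genes, and 56 of them had a mean of at least 10 reads over the 15 libraries and were tested. Of these 56, 2 were actins, 8 crosslinkers and adhesion proteins, 4 tropomyosins, 6 transgelins and calponins, 7 myosin heavy chains, 7 light chains and 22 unconventional myosins. All libraries came from total RNA of line 81K1, which was derived from OG2 cells, is 1 clone and carries an shRNA against Smarcb1 under doxycycline control. In the kd groups the shRNA was switched on by daily doxycycline (1 µg per ml) for 48 h, 72 h or 240 h, and in the ctrl groups, 48 h and 240 h, no doxycycline was given. Each of the 5 groups had 3 libraries, so n = 3 throughout. An untreated 72 h group was not analysed here, so 72 h kd was compared with 48 h ctrl, and a doxycycline-treated line without the shRNA was not analysed here. The labels do not say that replicates were separate cultures, so p-values measure only the spread between these libraries.

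Actin monomers assemble into filaments, and myosin II, a hexamer of a pair of heavy chains with essential and regulatory light chains, pulls on these filaments to create tension. Tropomyosins, calponins and transgelins bind along the filaments, alpha-actinins and filamins crosslink them, and vinculin ties them to adhesion sites. Many unconventional myosins carry cargo or hold membranes to actin. Many actin, light chain and calponin genes carry a CArG box, the binding motif of serum response factor (SRF), whose cofactor MRTF is held by free actin monomers.

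A CArG box is a pair of C, then any run of 6 A or T, then a pair of G, and it was searched in the 300 bases around each RefSeq start, 250 before it and 50 from it on. It was present in 12 of the 63 members with a promoter in the table (19.0%), compared with 488 of all 27025 genes with a promoter (1.81%). Of the tested members these were Actg1, Cnn2, Myh13, Myl6, Myl7, Myl9, Myo1e and Vcl, and of the members with fewer reads Acta1, Actc1, Myh4 and Myl3. A promoter was in the table for 48 of the 56 tested members. A member not named here had no match to this pattern in this window or was not searched, so it cannot be said to lack a box. Because the motif is its own reverse complement in form, both strands were covered by 1 search. A match is a run of letters and not a measured binding site. The 5 tested members that had the box before their start and were called in a comparison below are shown with the box in capitals, each with the 80 bases before it and the 4 after it, 5′ to 3′ on the strand of the gene (RefSeq, GRCm38.p6).
Actg1 (chr11:120348572-120348665, minus strand): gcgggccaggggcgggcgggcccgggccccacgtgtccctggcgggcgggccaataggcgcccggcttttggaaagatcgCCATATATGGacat
Cnn2 (chr10:79988464-79988557, plus strand): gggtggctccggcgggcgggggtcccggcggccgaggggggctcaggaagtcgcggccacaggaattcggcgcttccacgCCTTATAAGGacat
Myl6 (chr10:128493046-128493139, minus strand): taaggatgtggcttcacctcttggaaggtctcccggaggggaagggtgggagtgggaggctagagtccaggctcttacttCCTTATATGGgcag
Myl7 (chr11:5898830-5898923, minus strand): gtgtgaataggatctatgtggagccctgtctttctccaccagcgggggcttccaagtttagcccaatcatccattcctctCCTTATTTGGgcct
Myl9 (chr2:156775223-156775316, plus strand): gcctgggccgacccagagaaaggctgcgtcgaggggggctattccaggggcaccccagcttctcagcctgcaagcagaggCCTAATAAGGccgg
The box began 90 bases before the start in Actg1, 56 in Cnn2, 50 in Myl6, 61 in Myl7 and 161 in Myl9. The calls of these 5 genes differed: Actg1 and Myl6 were lower at 72 h, Myl7 was lower at all 3 times, Myl9 was higher at 240 h, and the knockdown effect on Cnn2 differed between 48 h and 240 h. By adjusted p alone, with no fold threshold, Actg1, Cnn2, Myl6 and Myl7 were all lower at 48 h and at 72 h. At 240 h, by the same rule, Myl6 and Myl7 were lower and Cnn2 and Myl9 higher. Whether the 5 genes moved together was not tested.

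The libraries held 11074998 to 14515300 reads. Smarcb1 itself fell from 84.7 to 97.8 reads per 1000000 reads of a library (RPM) in the 48 h ctrl libraries to 12.5 to 20.4 in the 48 h kd libraries, and its log2 fold change was -2.50, -2.67 and -2.37 at 48 h, 72 h and 240 h. All 10 markers of pluripotent stem cells had at least 10 reads on average, and of the 10 markers of skeletal muscle, which summed to 27.8 to 57.2 RPM, the member Actn3 alone had as many. Of its defining factors, Myf5 and Myf6 were at 0 in every group and Myog in 48 h ctrl. Library 2 of 48 h kd stood apart from the others of its group, with a chi-square over gene counts, divided by its degrees of freedom, of 11.3 and 9.14 against the other replicates and 1.51 between those, and with 2.35% of its reads from the mitochondrial genome compared with 0.469% to 1.81% in the other libraries, and the member calls that changed without it are given below. Replicate 3 of 240 h ctrl, with the lowest share, also differed from its group: the same ratio was 8.89 and 5.02 against the other replicates and 2.23 between those. Leaving out this replicate lost no member call and added Actn4 (0.60) to the difference of the 240 h and 48 h effects. Reads had been counted over the whole gene span, introns included, and irrespective of strand. A level is therefore given as RPM, and a comparison between genes as RPM per kb of exonic length. If intronic reads were counted, the latter is raised in genes with long introns, so ranks between genes are uncertain.

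Per exonic kb, Actb was the highest of the members with a mean of 928 RPM per kb over all libraries. Actg1 followed with 148, then Actn4 with 102, Cnn3 with 91.5 and Flna with 62.8 RPM per kb. Among the unconventional myosins Myo10, a filopodial motor, was highest with 32.2, and the muscle heavy chains Myh3 and Myh6 reached 1.54 and 0.748 RPM per kb. The 56 members together held 8192 ± 177 RPM (48 h ctrl) (mean ± SD), 6989 ± 323 (48 h kd) and 6978 ± 131 (72 h kd). At 240 h the sums were 8379 ± 223 RPM in ctrl and 8011 ± 40.9 in kd. The crosslinkers and adhesion genes summed to 2002 to 2015 RPM (48 h ctrl), 1628 to 1684 (48 h kd) and 1523 to 1589 (72 h kd), whereas their sums overlapped at 240 h, with 2166 to 2236 in ctrl and 2186 to 2254 in kd. In bulk RNA, fewer cells of a type and less RNA per cell cannot be told apart.

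A member was called changed when its adjusted p was under 0.05 (limma, Benjamini-Hochberg over 16370 genes) and its absolute log2 fold change was above 0.58. At 48 h, 4 of the 56 members were called, all lower (7.14%), compared with 9.2% of all genes tested (4.36% higher and 4.84% lower). At 72 h, 7 members were higher and 9 lower (28.6%), compared with 22.3% of all genes (12.1% higher and 10.2% lower). With median centring 6 members were higher and 11 lower at 72 h, and of all genes called the share that was higher went from 54.1% to 45%. At 240 h, 8 were higher and 7 lower (26.8%), compared with 17.1% of all genes (9.11% higher and 8.03% lower). The members' median log2 fold change was -0.19, -0.15 and -0.02 at 48 h, 72 h and 240 h, and the median over all genes was 0.01, 0.01 and 0.00. With no fold threshold, 27 members passed the adjusted p at 48 h, 23 of them lower and 4 higher, compared with 25.8% of all genes (13% lower and 12.7% higher). Those 23 include both cytoplasmic actins, 6 of the 8 crosslinkers and adhesion genes, and the tropomyosins Tpm1, Tpm3 and Tpm4. At 240 h under the same rule 16 members were higher and 19 lower, compared with 45.0% of all genes (23.0% higher and 22.0% lower). Of the 26 members called in at least 1 knockdown comparison, 20 were called in 1, 3 in 2 (Cnn1, Myh3 and Myo1a) and 3 in all (Flnc, Myl7 and Myo1g). As shares of the 26 these were 76.9%, 11.5% and 11.5%, compared with 62.1%, 25% and 13% of the 5277 genes called in at least 1 of the 3 comparisons among all genes tested. The 48 h and 72 h comparisons share their control libraries.

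**Figure D1:**
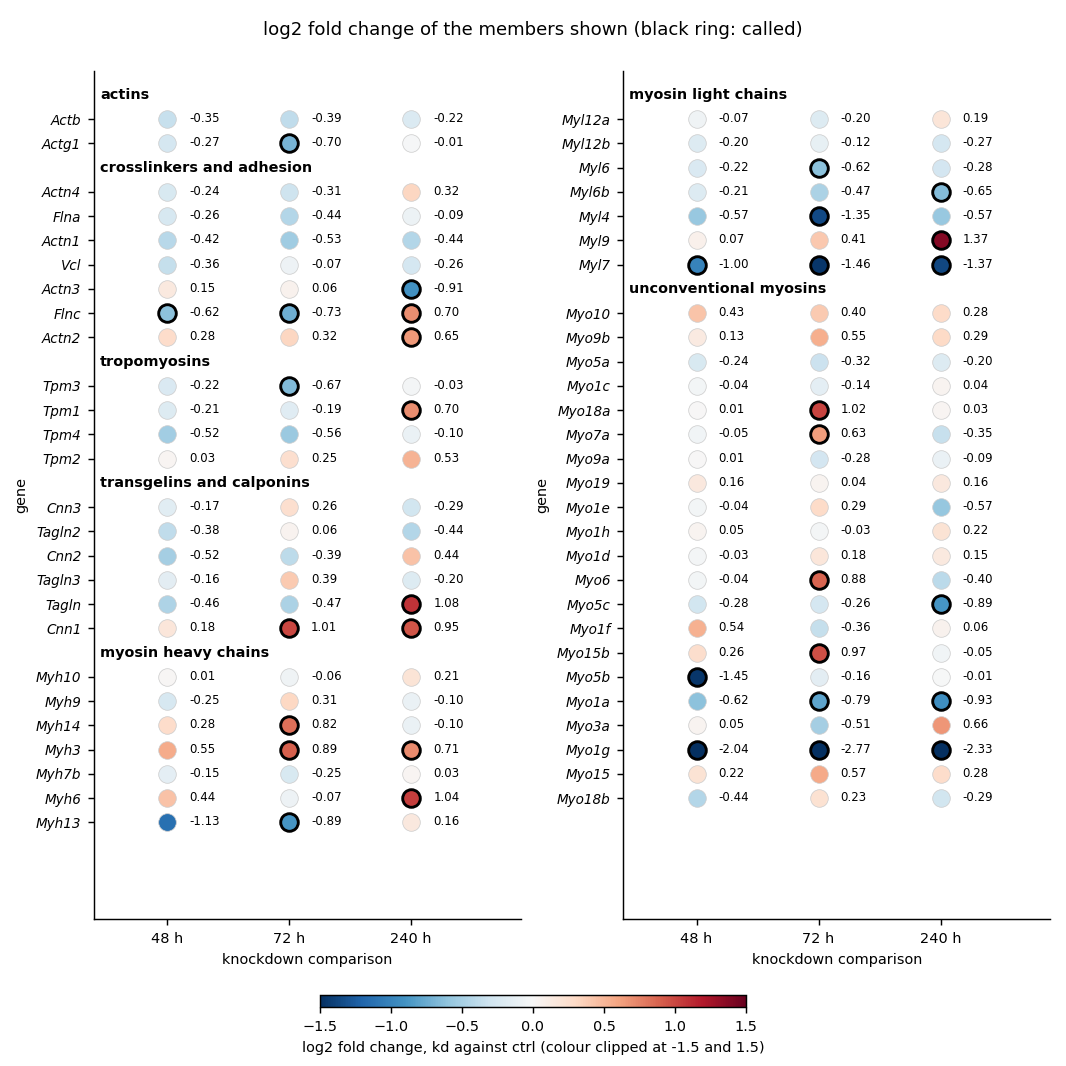
Log2 fold change of the tested members, 2 left out, grouped by role and ordered within a role by mean RPM, in each knockdown comparison. Colour gives the log2 fold change, black rings mark called members, and Flnc is the member called in opposite directions, with -0.62 at 48 h and 0.70 at 240 h.

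Both cytoplasmic actins had lower values in the early knockdown libraries. Actb (chr5:142903115-142906754), beta-actin, held 2636, 2910 and 2930 RPM in the 48 h ctrl libraries, 2310, 1959 and 2410 (48 h kd) and 2187, 2071 and 2228 (72 h kd). At 240 h it held 2646, 2811 and 2963 RPM in ctrl and 2328, 2477 and 2408 in kd. In each comparison all kd libraries lay below all ctrl libraries, but the log2 fold changes of -0.35 ± 0.080 (SE), -0.39 ± 0.041 and -0.22 ± 0.047 stayed under the fold threshold, with adjusted p = 0.00649, 1.70e-08 and 0.000992. Actg1 (chr11:120345690-120348542), gamma-actin, held 438, 458 and 464 RPM (48 h ctrl), 405, 336 and 393 (48 h kd) and 279, 276 and 283 (72 h kd). Its 72 h kd libraries lay below every other library, and it fell by 0.70 ± 0.035 on the log2 scale at 72 h (adjusted p = 2.61e-14). The 240 h values of 410.2, 424 and 448 RPM in ctrl and 411, 426 and 434 in kd overlapped, with a log2 fold change of -0.01 ± 0.043. Of the 75-base windows of Actg1 transcripts, 33.5% also occurred in other genes, mostly the pseudogene Gm12715, and the small RNA gene Gm23419 lies inside it, so its reads are partly uncertain.

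The muscle actins had few reads, and Acta2, the actin of smooth muscle, was the one with values that stood out at 240 h. Acta2 (chr19:34241090-34255590) had a mean of 8.87 reads, just under the minimum, and is named here after its values were seen. It had 1, 3 and 2 reads (48 h ctrl), 4, 2 and 2 (48 h kd), 3, 2 and 5 (72 h kd) and 0, 4 and 4 (240 h ctrl), compared with 30, 42 and 29 (240 h kd). With no minimum on reads, limma gave a log2 fold change of 3.27 ± 0.48 at 240 h (adjusted p = 3.08e-05). No other gene overlaps Acta2, and none of its transcript windows occurred elsewhere. In the same fit Actg2, the other smooth muscle actin, passed with 3, 1 and 2 reads (240 h ctrl) and 5, 11 and 6 (240 h kd) (adjusted p = 0.0452). Acta1 had at most 9 reads and Actc1 at most 3 in any library. Of the 18 members under the minimum, Myh7 was the nearest to it with a mean of 9.67 reads and Myh2 had 0 reads in every library, while the members just above the minimum were Myl7 with 11.4 and Myo18b with 11.6.

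**Figure D2:**
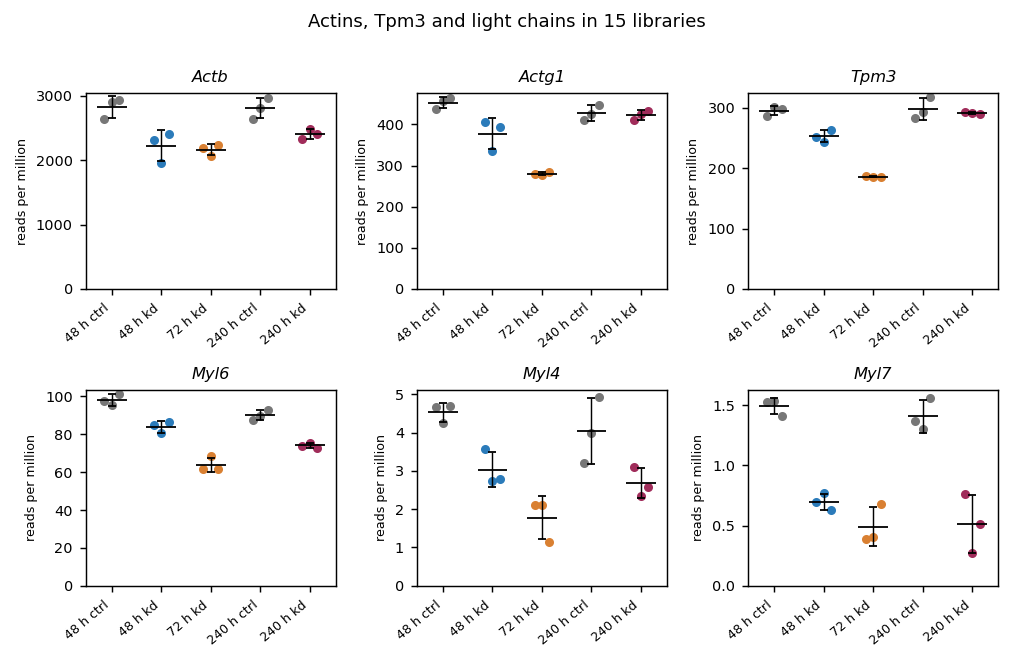
RPM of Actb, Actg1, Tpm3, Myl6, Myl4 and Myl7 in the 15 libraries, with points for libraries, a bar for the group mean and whiskers for 1 SD. Actg1 and Tpm3 were lowest in the 72 h kd libraries, while Myl7 was lower in all kd groups.

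Among crosslinkers, Flnc fell early and rose late. Flnc (chr6:29433256-29461883), the muscle-enriched filamin, held 17.4, 17.1 and 17.8 RPM (48 h ctrl), 10.8, 12.6 and 10.7 (48 h kd) and 10.2, 11.1 and 10.2 (72 h kd). Its 240 h values were 22.0, 23.7 and 18.5 RPM in ctrl and 34.5, 35.5 and 33.9 in kd. The kd libraries lay below the controls at 48 h and 72 h and above them at 240 h, without overlap. The log2 fold changes were -0.62 ± 0.10 (adjusted p = 0.00066), -0.73 ± 0.092 (2.82e-07) and 0.70 ± 0.085 (3.46e-06), and the 240 h effect exceeded the 48 h effect by 1.32 ± 0.13 (adjusted p = 1.01e-06). Without 48 h kd replicate 3 the 48 h value fell short of the fold threshold, with adjusted p = 0.00472. Actn3 (chr19:4861216-4877909), a muscle alpha-actinin, held 48.3, 48.2 and 51.8 RPM (48 h ctrl), 53.4, 55.0 and 55.9 (48 h kd), 50.4, 49.8 and 54.4 (72 h kd) and 49.3, 53.2 and 50.5 (240 h ctrl). The 240 h kd libraries, with 27.7, 26.2 and 27.5 RPM, lay below all 12 others, a log2 fold change of -0.91 ± 0.062 (adjusted p = 3.12e-09). Actn2, the other muscle alpha-actinin, had 4.58, 5.76 and 4.45 RPM (240 h ctrl) and 10.8, 5.99 and 7.12 (240 h kd), after 5.18, 4.15 and 3.27 (48 h ctrl), 5.12, 5.97 and 4.15 (48 h kd) and 5.70, 4.94 and 4.90 (72 h kd). It rose by 0.65 ± 0.19 at 240 h (adjusted p = 0.00888), a call that was lost without 240 h kd replicate 1 (adjusted p = 0.0716).

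The 4 broadly expressed genes Actn1, Actn4, Flna and Vcl were not called in a knockdown comparison. Their log2 fold changes lay between -0.42 (Actn1) and -0.24 (Actn4) at 48 h, and between -0.53 (Actn1) and -0.07 (Vcl) at 72 h. At 240 h, Actn1 was at -0.44 ± 0.040 and Actn4 at 0.32 ± 0.043 on the log2 scale. Vcl shares its span with Ap3m1 on the other strand.

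Tropomyosins split between isoform genes. Tpm1 (chr9:67022590-67049406), which encodes muscle and non-muscle tropomyosins, held 99.7, 102 and 96.8 RPM (48 h ctrl), 85.3, 93.3 and 80.3 (48 h kd) and 85.3, 89.3 and 87.7 (72 h kd). It then held 85.6, 85.6 and 82.2 RPM (240 h ctrl) and 132, 136 and 144 (240 h kd). The 240 h kd libraries were above every other library, with a log2 fold change of 0.70 ± 0.049 (adjusted p = 3.91e-09) that exceeded the 48 h effect by 0.91 ± 0.078 (adjusted p = 1.84e-07). Tpm3 (chr3:90072649-90100902), a cytoskeletal tropomyosin gene, held 287, 301 and 297 RPM (48 h ctrl), 252, 243 and 264 (48 h kd) and 187, 186 and 185 (72 h kd). As with Actg1, its 72 h kd libraries were the lowest, with a log2 fold change of -0.67 ± 0.036 (adjusted p = 9.67e-14). At 240 h the values of 283, 293 and 318 RPM in ctrl and 293, 292 and 289.7 in kd overlapped. Of its transcript windows, 19.1% also occurred in Tpm3-rs7. Tpm4 had log2 fold changes of -0.52, -0.56 and -0.10 at 48 h, 72 h and 240 h and Tpm2 of 0.03, 0.25 and 0.53, all under the fold threshold. Tpm4 shares its span with Gm16091 on the other strand.

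Tagln and Cnn1, which are widely used markers of smooth muscle, were higher in the 240 h kd libraries. Tagln (chr9:45929619-45936058), transgelin, held 3.21, 3.70 and 3.71 RPM (48 h ctrl), 2.78, 2.05 and 2.89 (48 h kd) and 2.11, 3.24 and 2.33 (72 h kd). It held 5.23, 4.22 and 5.63 RPM (240 h ctrl) and 11.5, 9.37 and 11.3 (240 h kd). All 240 h kd libraries lay above all others, the log2 fold change was 1.08 ± 0.14 (adjusted p = 6.88e-06), and the 240 h effect exceeded the 48 h effect by 1.54 ± 0.23 (adjusted p = 0.000112). Pcsk7 and Gm48529 lie across Tagln on the other strand. At 240 h Pcsk7 had a log2 fold change of -0.18 and Gm48529 of 1.14, and reads shared between the 3 genes cannot be told apart. Cnn1 (chr9:22099216-22109630), basic calponin, held 0.656, 0.722 and 0.795 RPM (48 h ctrl), 0.781, 1.02 and 0.722 (48 h kd) and 1.33, 1.86 and 1.51 (72 h kd). The 72 h kd libraries lay above both 48 h groups, and at 240 h the kd values of 1.59, 1.72 and 1.47 RPM lay above 0.804, 0.487 and 1.17 in ctrl. The log2 fold change was 1.01 ± 0.29 at 72 h (adjusted p = 0.00409) and 0.95 ± 0.31 at 240 h (0.0194), with 6 to 25 reads per library. The 240 h call was lost without ctrl replicate 2, kd replicate 1 or kd replicate 2 (adjusted p = 0.0525 to 0.0985).

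The other 4 genes of this group were not called in a knockdown comparison. Cnn2, the calponin of non-muscle cells, held 38.1, 45.2 and 41.4 RPM (48 h ctrl), 29.7, 26.7 and 30.7 (48 h kd) and 31.5, 30.8 and 32.7 (72 h kd). It was below the controls at 48 h and above them at 240 h, with 34.1, 35.1 and 33.8 RPM in ctrl and 42.8, 47.6 and 50.01 in kd. The log2 fold changes of -0.52 and 0.44 were each under the threshold, whereas their difference of 0.96 ± 0.11 was called (adjusted p = 4.12e-06). Tagln2 went from -0.38 at 48 h to 0.06 at 72 h and -0.44 at 240 h on the log2 scale, and Cnn3 from -0.17 to 0.26 and -0.29.

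**Figure D3:**
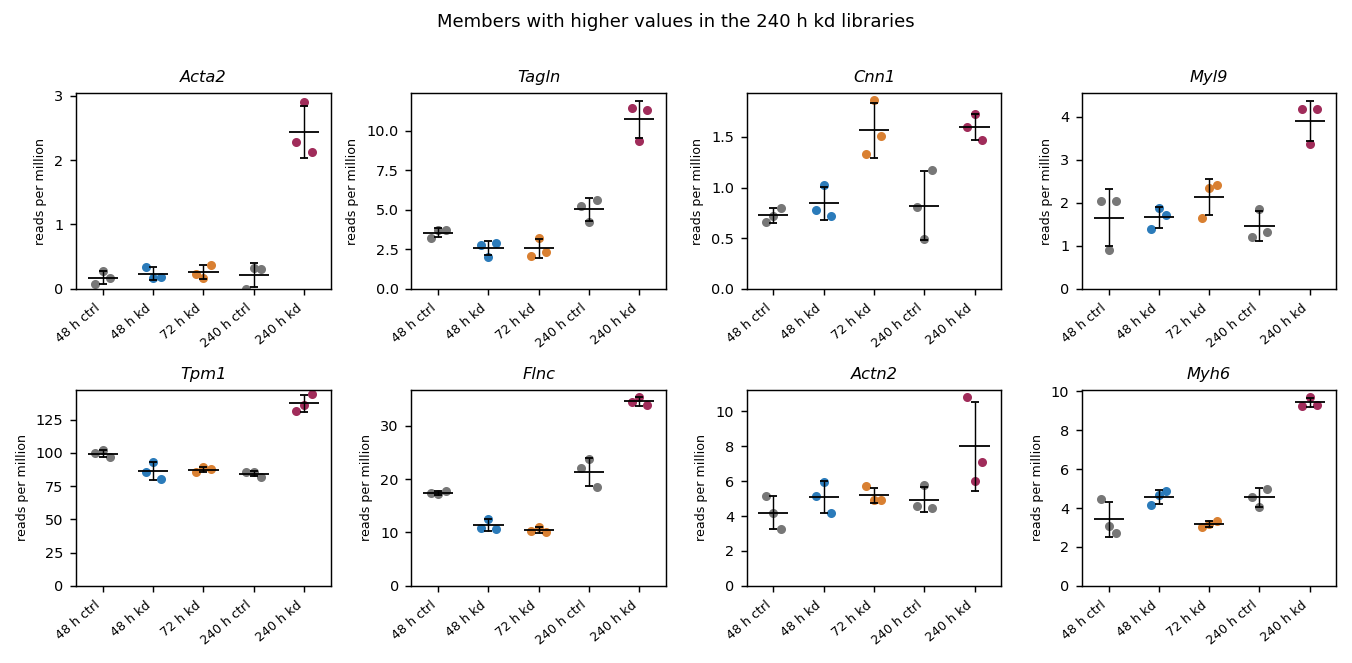
RPM of Acta2, Tagln, Cnn1, Myl9, Tpm1, Flnc, Actn2 and Myh6 in the 15 libraries, with points for libraries, a bar for the group mean and whiskers for 1 SD. For each of the 8 genes all 240 h kd libraries lay above all 240 h ctrl libraries, and Cnn1 was already higher at 72 h.

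Of the heavy chains of non-muscle myosin II, Myh14 was called and Myh9 and Myh10 were not. Myh9 (chr15:77760587-77842175) held 177, 171 and 160.5 RPM (48 h ctrl), 141, 148 and 138 (48 h kd), 209, 211 and 209.7 (72 h kd), 214, 217 and 207 (240 h ctrl) and 199, 190.4 and 205 (240 h kd). Its values were below the controls at 48 h and above them at 72 h, without overlap, but the log2 fold changes of -0.25 ± 0.054 and 0.31 ± 0.040 were under the fold threshold. Myh10 held 196, 198 and 178 RPM (48 h ctrl), 192, 194 and 192 (48 h kd), 182, 179.7 and 187 (72 h kd), 226, 216 and 221 (240 h ctrl) and 265, 245 and 256 (240 h kd). Of the 3 comparisons, its groups were apart at 240 h, with a log2 fold change of 0.21 ± 0.043 (adjusted p = 0.000899). Myh14 (chr7:44605803-44670843) held 32.9, 33.0 and 32.7 RPM (48 h ctrl), 42.0, 38.5 and 39.2 (48 h kd) and 56.8, 58.6 and 59.3 (72 h kd). The 72 h kd libraries were the highest of all 15, with a log2 fold change of 0.82 ± 0.054 (adjusted p = 3.04e-12). At 240 h its values overlapped, with 27.8, 30.7 and 30.0 RPM in ctrl and 26.4, 26.2 and 29.8 in kd.

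Muscle heavy chains were present at low levels. Myh3 (chr11:67078300-67102291), the embryonic muscle heavy chain, held 7.80, 7.76 and 6.27 RPM (48 h ctrl), 9.46, 11.3 and 11.4 (48 h kd), 12.97, 13.03 and 14.6 (72 h kd), 6.59, 5.60 and 5.08 (240 h ctrl) and 9.10, 10.2 and 8.96 (240 h kd). All kd libraries lay above their controls at each time, and it was called at 72 h (0.89 ± 0.12, adjusted p = 4.13e-07) and 240 h (0.71 ± 0.13, 0.000321). Myh6 (chr14:54941921-54966927), the alpha heavy chain of heart muscle, held 4.45, 3.07 and 2.74 RPM (48 h ctrl), 4.17, 4.69 and 4.88 (48 h kd), 3.05, 3.16 and 3.31 (72 h kd), 4.58, 4.06 and 5.00 (240 h ctrl) and 9.26, 9.71 and 9.33 (240 h kd). The 240 h kd libraries stood above the other 12, with a log2 fold change of 1.04 ± 0.13 (adjusted p = 5.15e-06). Of its transcript windows 13.7% also occurred in the neighbouring Myh7, which itself had 16, 7 and 10 reads (240 h ctrl) and 23, 20 and 15 (240 h kd). Myh13, the heavy chain of eye muscles, held 1.02, 0.541 and 1.24 RPM (48 h ctrl), 0.174, 0.426 and 0.542 (48 h kd), 0.469, 0.324 and 0.527 (72 h kd), 1.05, 1.38 and 1.88 (240 h ctrl) and 1.90, 1.86 and 1.10 (240 h kd). Its 72 h fall of -0.89 ± 0.37 (adjusted p = 0.0427) rested on 4 to 14 reads per library and was lost without 48 h ctrl replicate 1 or 3 or 72 h kd replicate 1 or 2 (adjusted p = 0.0641 to 0.178).

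Of the light chains, Myl7 was lower at every time and Myl9 rose at 240 h. Myl7 (chr11:5896637-5898782), the regulatory light chain of atrial muscle, held 1.53, 1.53 and 1.41 RPM (48 h ctrl), 0.695, 0.767 and 0.632 (48 h kd), 0.391, 0.405 and 0.678 (72 h kd), 1.37, 1.30 and 1.56 (240 h ctrl) and 0.759, 0.276 and 0.514 (240 h kd). All 9 kd libraries lay below all 6 ctrl libraries, with 4 to 21 reads per library. It fell by 1.00, 1.46 and 1.37 on the log2 scale (SE 0.27, 0.32 and 0.34), with adjusted p = 0.0163, 0.000334 and 0.00372. The 48 h call was lost without ctrl replicate 1, ctrl replicate 2 or kd replicate 3 (adjusted p = 0.0504 to 0.0633). Myl7 passed the minimum of 10 reads through its ctrl libraries, which averaged 17.8 reads compared with 7.11 in the kd libraries, and with no minimum the adjusted p was 0.0586, 0.00148 and 0.00976, so that the 48 h call was lost. Myo1g likewise passed through its ctrl libraries and Cnn1 through its kd libraries, and with no minimum both kept the knockdown calls they had. Myl9 (chr2:156775420-156781658), the regulatory light chain of smooth muscle and non-muscle myosin, held 2.04, 0.902 and 2.03 RPM (48 h ctrl), 1.39, 1.88 and 1.72 (48 h kd), 1.64, 2.35 and 2.41 (72 h kd), 1.21, 1.87 and 1.33 (240 h ctrl) and 4.17, 3.38 and 4.19 (240 h kd). The 240 h kd libraries were above all others, with a log2 fold change of 1.37 ± 0.22 (adjusted p = 6.57e-05), whereas the 48 h groups overlapped.

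Myl4, an essential light chain of atrial and embryonic muscle, held 4.67, 4.24 and 4.68 RPM (48 h ctrl), 3.56, 2.73 and 2.80 (48 h kd), 2.11, 2.10 and 1.13 (72 h kd), 3.22, 3.98 and 4.92 (240 h ctrl) and 3.11, 2.34 and 2.57 (240 h kd). Its values were lower at 48 h and lower again at 72 h, with a called log2 fold change of -1.35 ± 0.22 at 72 h (adjusted p = 1.23e-05), and -0.57 at both other times. Myl6, the essential light chain of non-muscle myosin, ranged from 95.4 to 101 RPM (48 h ctrl) and 61.8 to 68.3 (72 h kd), a called log2 fold change of -0.62 ± 0.049 (adjusted p = 1.15e-10). At 48 h and 240 h its log2 fold changes were -0.22 and -0.28, and against 240 h ctrl the 72 h value was -0.49, under the fold threshold. Myl6b, the neighbouring essential light chain gene, held 9.26, 10.1 and 9.54 RPM (48 h ctrl), 8.77, 7.67 and 8.58 (48 h kd), 6.80, 6.23 and 7.83 (72 h kd), 7.96, 8.85 and 7.42 (240 h ctrl) and 5.46, 4.75 and 5.14 (240 h kd). It was called at 240 h (-0.65 ± 0.13, adjusted p = 0.000749), but not without 240 h ctrl replicate 2, where the fold was under the threshold (adjusted p = 0.00787). Myl12a and Myl12b, the abundant regulatory light chains of non-muscle myosin, lie under the same gene Gm49909, share 14.6% and 15.9% of their windows with each other or other genes, and were not called, with log2 fold changes between -0.27 and 0.19.

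Myo1g had the largest fall of all members in each knockdown comparison. Myo1g (chr11:6506548-6520965), a class I myosin of blood cells, held 2.41, 1.98 and 2.03 RPM (48 h ctrl), 0.347, 0.682 and 0.361 (48 h kd), 0.234, 0.162 and 0.301 (72 h kd), 2.41, 3.09 and 3.44 (240 h ctrl) and 0.303, 0.620 and 0.661 (240 h kd). The kd libraries had 2 to 9 reads and the ctrl libraries 22 to 44, without overlap. It fell by 2.04, 2.77 and 2.33 on the log2 scale, with adjusted p = 0.000413, 1.07e-07 and 6.32e-06, and stayed called with any 1 library left out. Fold changes of genes this low are understated by the 0.1 RPM added before the logarithm. Myo1a, a class I myosin of the intestinal brush border, held 2.41, 1.80 and 2.38 RPM (48 h ctrl), 0.781, 1.96 and 1.72 (48 h kd), 1.33, 1.38 and 0.979 (72 h kd), 2.17, 1.38 and 1.88 (240 h ctrl) and 0.759, 0.689 and 1.32 (240 h kd). Its falls of 0.79 at 72 h and 0.93 at 240 h on the log2 scale were called (adjusted p = 0.0083 and 0.0172). The first was lost against 240 h ctrl (-0.51), and the second without ctrl replicate 1, kd replicate 1 or kd replicate 2 (adjusted p = 0.0588 to 0.0699).

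Class V myosins, which carry vesicles, differed in when they were lower. Myo5b (chr18:74440936-74771493), a motor of recycling endosomes, held 4.67, 3.52 and 5.39 RPM (48 h ctrl), 1.65, 1.96 and 1.17 (48 h kd), 4.06, 3.80 and 4.07 (72 h kd), 2.33, 3.00 and 2.89 (240 h ctrl) and 2.58, 2.82 and 2.72 (240 h kd). The 48 h kd libraries lay below all others, with a log2 fold change of -1.45 ± 0.24 (adjusted p = 0.000706), and the 72 h kd libraries lay above them by 1.29 ± 0.22 (adjusted p = 0.000471). The untreated groups also differed, 240 h ctrl from 48 h ctrl by -0.69 ± 0.19 (adjusted p = 0.0285), the 1 member called in that comparison (1.79%), compared with 1.36% of all genes (0.867% higher and 0.495% lower). Of these 223 genes 142 were higher, or 176 of 238 with median centring. That call was lost without 48 h ctrl replicate 1 or 3 or 240 h ctrl replicate 1 or 2 (adjusted p = 0.0578 to 0.157). Myo5c (chr9:75232020-75305451), a motor of secretory epithelia, held 14.3, 13.7 and 11.6 RPM (48 h ctrl), 10.1, 11.9 and 10.5 (48 h kd), 10.4, 11.8 and 10.7 (72 h kd), 15.3, 16.3 and 11.4 (240 h ctrl) and 7.89, 8.54 and 6.54 (240 h kd). The 240 h kd libraries were the lowest, with a log2 fold change of -0.89 ± 0.14 (adjusted p = 5.47e-05). Myo5a was not called, with -0.24, -0.32 and -0.20 on the log2 scale.

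A set of unconventional myosins was higher at 72 h than in the other groups. Myo18a (chr11:77763246-77865980), which links the Golgi to actin, held 62.7, 63.6 and 59.7 RPM (48 h ctrl), 60.2, 65.3 and 61.2 (48 h kd), 123, 126 and 128 (72 h kd), 70.4, 66.9 and 66.3 (240 h ctrl) and 68.7, 68.2 and 70.3 (240 h kd). The 72 h kd libraries stood above all 12 others, by 1.02 ± 0.045 against 48 h ctrl (adjusted p = 1.60e-15) and by 1.01 ± 0.052 against 48 h kd (7.18e-08). Myo6 (chr9:80165031-80311729), the motor that walks to the pointed end of filaments, held 14.7, 12.4 and 14.04 RPM (48 h ctrl), 12.2, 13.8 and 13.8 (48 h kd), 23.8, 25.0 and 26.7 (72 h kd), 11.7, 10.6 and 10.1 (240 h ctrl) and 7.13, 8.96 and 8.52 (240 h kd). It was higher at 72 h by 0.88 ± 0.086 (adjusted p = 3.88e-09) and, under the fold threshold, lower at 240 h by 0.40. Myo15b held 4.30, 3.88 and 3.71 RPM (48 h ctrl), 3.99, 5.63 and 4.79 (48 h kd), 8.91, 8.58 and 6.25 (72 h kd), 3.94, 3.65 and 3.83 (240 h ctrl) and 3.64, 3.51 and 3.89 (240 h kd). All its 72 h kd values were above the rest, with a log2 fold change of 0.97 ± 0.16 (adjusted p = 9.15e-06), while Recql5, which lies across it on the other strand, was at 0.05. Myo7a, known from hair cells and retina, ranged from 64.4 to 76.6 RPM (48 h ctrl) and 105 to 113 (72 h kd) (0.63 ± 0.054, adjusted p = 3.67e-10), and fell under the fold threshold without 48 h ctrl replicate 1 or with median centring (0.56). Time in culture and knockdown cannot be told apart at 72 h, and against 240 h ctrl the 72 h calls of these 4 genes were kept.

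**Figure D4:**
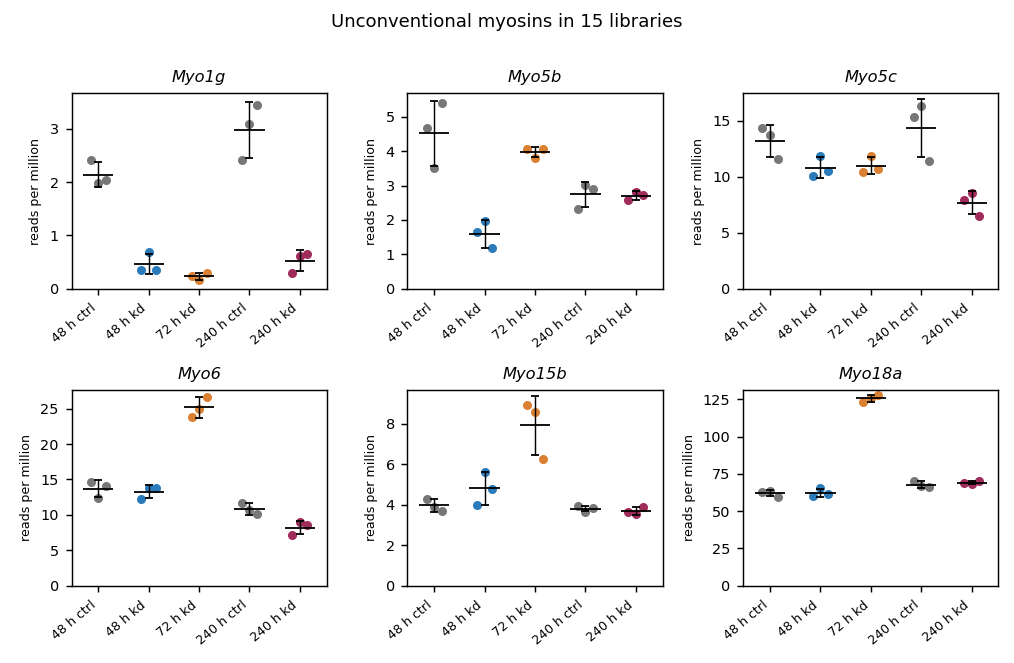
RPM of Myo1g, Myo5b, Myo5c, Myo6, Myo15b and Myo18a in the 15 libraries, with points for libraries, a bar for the group mean and whiskers for 1 SD. Myo1g was lower in every kd group, Myo5b was lowest at 48 h kd, and Myo6, Myo15b and Myo18a were highest at 72 h kd.

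Compared directly, 8 members differed between 72 h kd and 48 h kd (14.3%), compared with 13% of all genes (6.66% higher and 6.29% lower). With median centring, the share that was higher among all genes called went from 51.4% to 43.2%. Cnn1, Myo15b, Myo18a, Myo5b, Myo6 and Myo7a were higher at 72 h, and Myl4 and Myo1f, a class I myosin of blood cells, were lower, Myo1f by 0.90 on the log2 scale (adjusted p = 0.000522). Leaving out single libraries removed Cnn1 (adjusted p up to 0.114), Myl4 (up to 0.124) and, without 48 h kd replicate 2, Myo7a, whose log2 fold change of 0.57 was then under the threshold, while Myh9 (0.59) and Tagln3 (0.63) were added, giving 9 members. The other 13 unconventional myosins were not called in a knockdown comparison. Of these, Myo10 had all kd libraries above their controls at each time, with 0.43, 0.40 and 0.28 on the log2 scale and adjusted p = 4.80e-05, 3.11e-09 and 4.61e-05, under the fold threshold each time. Without 48 h kd replicate 2, the library that stood apart, 7 members were called at 48 h in place of 4, and the added ones were Myh13 (-1.24), Myo1a (-0.85) and Myo1f (0.62), while 8.97% of all genes were called. Without 48 h kd replicate 3, 2 were left, Myo1g and Myo5b.

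The knockdown effect at 240 h was tested against that at 48 h in 1 fit of 12 libraries, and 8 members differed (14.3%), compared with 10.5% of all genes (5.4% higher and 5.09% lower). Tagln, Myo5b, Flnc, Myl9, Cnn2 and Tpm1 had the higher effect at 240 h, by 1.54, 1.44, 1.32, 1.30, 0.96 and 0.91 on the log2 scale, and Actn3 and Myo5c the lower, by -1.06 and -0.60. For Tagln, Flnc, Cnn2 and Tpm1 the log2 fold change was below 0 at 48 h and above 0 at 240 h. The median difference over the 56 members was 0.11, compared with 0.00 over all genes. Myl9 lost the call without any of 6 of the 12 libraries, 48 h ctrl replicates 1 and 3, 48 h kd replicate 1, 240 h ctrl replicate 1 and 240 h kd replicates 1 and 3 (adjusted p = 0.0508 to 0.0720), and Myo5c without any of 7, 48 h ctrl and 48 h kd replicates 2 and 3, 240 h ctrl replicates 1 and 2 and 240 h kd replicate 3 (0.0523 to 0.106). Without 48 h kd replicate 2, Myo1e was added (-0.58).

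**Figure D5:**
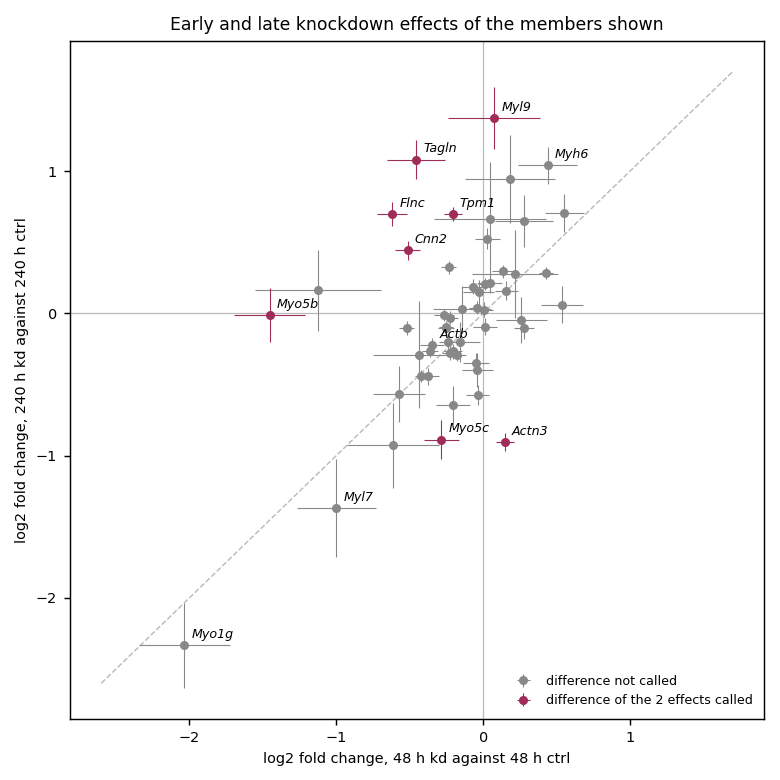
Log2 fold change of the tested members, 2 left out, at 240 h against that at 48 h, with 1 SE on each axis and the line of equal effects dashed. Members whose effects differed in the test of the difference are coloured, and Myo1g lies lowest on both axes, at -2.04 at 48 h and -2.33 at 240 h.

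Other genes of actin regulation gave a mixed picture, to be read beside the 9.2%, 22.3% and 17.1% of all genes called at 48 h, 72 h and 240 h. Of 16 tested SRF target genes outside the family, 3 were lower at 48 h, 6 higher and 1 lower at 72 h, and 6 higher and 1 lower at 240 h, with median log2 fold changes of -0.16, 0.24 and 0.22. The largest rises at 240 h were in Thbs1, a secreted adhesion protein (2.28), Tgfb1i1, a focal adhesion adaptor (1.76), and Ccn1, a matrix protein (1.30), and Thbs1 was also called higher in 240 h ctrl than in 48 h ctrl. Of 24 genes of filament turnover, 3, 6 and 3 were lower at 48 h, 72 h and 240 h, and Tmsb4x, which binds actin monomers, was lower each time (-1.17, -2.80 and -1.26), while Gsn, which severs filaments, rose at 240 h (1.51). Of 26 membrane linkers and bundlers, 4 were lower at 48 h, 1 higher and 2 lower at 72 h, and 3 higher and 2 lower at 240 h. In the difference of the 240 h and 48 h effects, 6 of the 16 SRF targets, 4 of the 24 turnover genes and 6 of the 26 linkers were called, each with the higher effect at 240 h, compared with 5.4% of all genes higher and 5.09% lower. The 22 genes of branched nucleation, which build the Arp2/3 complex and its activators, had log2 fold changes between -0.33 and 0.38 over the 3 knockdown comparisons, under the fold threshold.

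Markers of other cell types moved in either direction beside the late rise of Acta2, Tagln, Cnn1, Myl9 and Tpm1. The 10 skeletal muscle markers summed to 27.8 to 29.7 RPM (240 h kd) and 50.6 to 54.4 (240 h ctrl), and the member Actn3, the 1 tested, was called lower. The 10 fibroblast markers summed to 37.1 to 42.3 RPM in the 240 h kd libraries and 21.1 to 22.6 (240 h ctrl), with 5 of the 10 tested and Col1a1 and Pdgfra called higher. The 8 smooth muscle markers, 1 of them Cnn1, summed to 97.2 to 104 RPM (240 h kd) and 83.6 to 89.0 (240 h ctrl), with Synpo2, Cald1 and Cnn1 called higher of 5 tested. The smooth muscle sums were 86.3 to 91.9 RPM (48 h ctrl), 81.2 to 85.0 (48 h kd), where Synpo2 was called higher and Des lower, and 118 to 126 (72 h kd), where Cnn1 and Cald1 were called higher and Myocd was at 0. In the earlier groups the fibroblast markers summed to 16.0 to 17.3 RPM (48 h ctrl), 12.6 to 15.5 (48 h kd) and 11.98 to 13.4 (72 h kd), where Fbn1 and Thy1 were called lower and Col1a1 and Pdgfrb higher, and Col1a1 was also called higher in 240 h ctrl than in 48 h ctrl. The 9 mesoderm markers summed to 10.8 to 12.6 RPM (240 h kd) and 9.17 to 10.8 (240 h ctrl), with Hand1 and Mixl1 called higher and Eomes lower of 5 tested. They summed to 8.84 to 9.10 RPM (48 h ctrl), 7.29 to 7.67 (48 h kd) and 7.77 to 8.36 (72 h kd), with Tbx6 called higher at 48 h and 72 h and Eomes lower at 48 h. Lum and Postn were at 0 in 48 h ctrl, 48 h kd and 240 h ctrl, and no fibroblast marker was at 0 in 72 h kd or in 240 h kd. The pluripotency markers summed to 5535 to 5574 RPM (240 h kd) and 6234 to 6662 (240 h ctrl), with Klf4, Esrrb and Zfp42 called lower. Their earlier sums were 6592 to 6893 RPM (48 h ctrl), 6143 to 6845 (48 h kd) and 7240 to 7422 (72 h kd). Klf4 was called lower at 48 h and 72 h and Dppa5a higher at 72 h. The 10 cardiac markers summed to 23.6 to 25.4 RPM (240 h kd) and 18.5 to 21.6 (240 h ctrl), with Hand1 called higher of 4 tested, beside the rise of Myh6. The same markers summed to 19.9 to 23.8 RPM (48 h ctrl), 19.7 to 29.4 (48 h kd) and 23.3 to 24.3 (72 h kd), where Tnni3 was called higher. Myh6 was not called at 48 h or 72 h. The part of such cells in the values of the members was not tested.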

How the data were processed

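RNA was sequenced as single reads from 15 libraries in 5 groups of 3. Per the labels and the study's methods, the authors aligned reads with STAR 2.7.0c to GRCm38.p6, tested counts with DESeq2 1.30.0 and deposited FPKM values, 1 per gene and library. The study names GENCODE M23 for its ChIP-seq peaks, the annotation behind the FPKM values is not given in the sources used here, and 73 of the 74 members matched GENCODE M21 by position and symbol. Multiplying the deposited FPKM by the gene span gave whole multiples of the smallest non-zero value of a library, for 100.0% of values (tolerance 0.001). The gene span was therefore the length that scaled the FPKM. Whether intronic reads, or reads of either strand, had been counted was not tested. The smallest non-zero value was taken as 1 read, which also gave the library total. The reads recovered in this way, divided by the library total, gave RPM.

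Log2(RPM + 0.1) was tested with limma 3.58.1 in R 4.3.3 (two-sided, trend in the prior variance) over the 16370 genes that averaged 10 reads or more, in fits of the 6 libraries compared, or of 12 for the difference between times. A minimum in reads was used because a minimum in FPKM over whole spans leaves out long myosin genes. Library totals of 11074998 to 14515300 make 0.1 RPM worth 1.11 to 1.45 reads. On simulated data the fits recovered 91.9%, 87.9% and 94.97% of 2-fold changes at 48 h, 72 h and 240 h, with 4, 4 and 5 false calls. The simulated reads were negative binomial with the same dispersion for every gene, 198 or 199 changed genes and no outlying library. The data differ in these settings, so the rates cannot be carried over to them. Library values are given for 23 of the 24 called members with the largest fold changes, Actg1 among them, and for Actb, Myh9, Myh10 and Cnn2, and 2 called members (Myl6 and Myo7a) by range. Values of 2 tested members, which stay in the counts, and of 1 gene list are not reported here. The members, gene lists and alternatives were chosen with earlier results of these data known.

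Alternatives were other pseudocounts, minima, scalings, thresholds, a fit with voom weights on the recovered reads, a replicate block and leaving out single libraries.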

Additional observations from a re-analysis of the deposited data

Results flagged for a closer look

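For 8 members the knockdown effect at 240 h differed from that at 48 h in the test of the difference itself (limma, 12 libraries, adjusted p under 0.05 and an absolute log2 difference above 0.58), or 14.3% compared with 10.5% of all genes. The 240 h effect was higher by 1.54 on the log2 scale in Tagln, 1.44 in Myo5b, 1.32 in Flnc, 1.30 in Myl9, 0.96 in Cnn2 and 0.91 in Tpm1. It was lower in Actn3 (-1.06) and Myo5c (-0.60). Of the 12 fits that left out 1 library each, Myl9 lost the call in 6 and Myo5c in 7. Single outlying values were not tested in groups of 3 libraries.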

How the results depend on the processing

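Of 1052 repeats of 52 member calls under other settings, 963 kept direction and call, 89 kept direction and lost the call, and 0 turned direction. The repeats with no fold threshold could not lose a call. Settings under which a member was not tested, mostly members with few reads, are not among the repeats. Counts of called members moved most with the thresholds. With no fold threshold they were 27, 40 and 35 at 48 h, 72 h and 240 h, 20 between the untreated groups, 23 between 72 h kd and 48 h kd and 19 for the difference of effects, or 48.2%, 71.4%, 62.5%, 35.7%, 41.1% and 33.9% of members, compared with 25.8%, 61.4%, 45%, 12.6%, 42.4% and 20.4% of all genes. With an absolute log2 fold change above 1 they were 2, 5, 5, 0, 2 and 5 in the same order, or 3.57%, 8.93%, 8.93%, 0%, 3.57% and 8.93%, compared with 3.53%, 9.18%, 7.66%, 0.318%, 4.06% and 5.01% of all genes. With log2(FPKM + 0.1) and a minimum of 0.5 FPKM together, which left 30 to 32 members, they were 1, 6, 5, 0, 2 and 5, and between the untreated groups 5 had an adjusted p under 0.05 and 20 an unadjusted one. A minimum of 50 reads gave 1, 10, 0 and 5 for 48 h, 72 h, the untreated groups and 72 h kd against 48 h kd. The untreated groups also gave 0 without a trend in the prior variance. In these fits (limma) 19 of 45 members, with the minimum of 50 reads, and 0 of 56, without the trend, had an adjusted p under 0.05 between the untreated groups, and 29 and 26 an unadjusted one. Leaving out 1 library gave 2 to 7 members at 48 h, 15 to 16 at 72 h, 13 to 17 at 240 h, 0 to 1 between the untreated groups, 6 to 9 between the kd groups and 6 to 9 for the difference of effects. Replicate numbers are shared by the labels, but groups this small cannot show whether the numbers pair the libraries. Correlations of same-numbered deviations ran from -0.19 to 0.17. Of the 6 libraries in a comparison, 1 at 48 h, 2 at 72 h and 2 at 240 h correlated best with their own number. Between the untreated groups 4 of 6 did, and between 72 h kd and 48 h kd also 4 of 6. With a replicate block the member counts were 4, 16, 15, 1, 8 and 8, equal to those without it, while all genes called between the untreated groups went from 223 to 335. Median centring removed Myo7a at 72 h (0.56 in place of 0.63). With no minimum on reads Myl7 at 48 h, Myh13 at 72 h, Cnn1 between the kd groups and Myl9 in the difference of effects lost the call, and without a trend in the prior variance Myh13, Actn2, Myl4 between the kd groups and Myo5c in the difference of effects did. All genes called went, with the FPKM scale and its minimum changed together and fewer genes tested, from 1506 to 456 at 48 h, 3652 to 1548 at 72 h and 2805 to 1016 at 240 h, and with a minimum of 50 reads to 914, 2227 and 1609. Members with few reads, such as Myl7, Cnn1, Myh13 and Myo1a, are limited by depth. Members that overlap other genes are limited because it is not known whether reads were counted by strand.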
